A study of Mus musculus with 20 samples.

Results

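The genes described here are 32 genes of cell division and DNA replication. They were chosen by name, from the machinery of DNA synthesis and mitosis, and each gene was read from the probe sets annotated to its symbol alone, through the one with the highest mean log2 intensity over all arrays. Of the 32 genes, 31 had such a probe set among the 18193 genes of the array and Ccnb1 had none in the annotation used. The probe sets of 20 genes exceeded an intensity of 100, the expression threshold of the study, in at least 5 arrays and were tested, beside 10603 genes tested in all. Those of the other 11, Aurka, Aurkb, Plk1, Birc5, Bub1, Bub1b, Kif11, Tpx2, Tacc3, Tyms and Tk1, did not, so their values are given without a test.

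RNA of visceral (mesenteric) fat was measured in 20 female C57BL/6J mice on Affymetrix mouse genome arrays, 1 for each animal, in 4 groups of 5. HF pregnant and HF non pregnant mice were fed a diet with 58% fat, and control pregnant and control non pregnant mice a low fat diet (10% fat). Feeding began weeks before the pregnant mice were mated, and the study states that HF feeding went on through gestation. The labels give the age E18.5 for all 4 groups, the non pregnant ones included, and name no altered allele. Array medians lay between 60.69 and 64.73, and precision is limited by the small number of mice. The adipocyte hormone gene Adipoq read between 14336 and 24630 in all mice. Genes of pancreatic acinar cells stood out in control pregnant mouse 2 and control non pregnant mouse 4, where 7 such genes lay on average 6.07 and 5.77 above their mean over all mice on the log2 scale, so the main counts are also given without these 2 mice. Control pregnant mouse 5 lay 2.12 above that mean and the other mice at most 0.42, and genes of intestinal epithelium lay 2.14 above theirs in control pregnant mouse 2.

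A dividing cell first copies its DNA and then separates the copies. The MCM helicase opens the double helix, the clamp Pcna holds the polymerases on it, and ribonucleotide reductase, thymidylate synthase and thymidine kinase supply the building blocks. Cyclins with Cdk1, together with Aurora and Polo-like kinases, then drive mitosis, the spindle checkpoint holds it until all chromosomes are attached, and the anaphase-promoting complex ends it by destroying the cyclins. Most adipocytes do not divide, so that in fat such transcripts are commonly read as a sign of dividing stromal or immune cells, and mesenteric fat carries lymphoid tissue. In bulk tissue, more cells of a type and more RNA per cell cannot be told apart.

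Promoters are shown for the 3 genes that followed the B cell gene Cd79b most closely (Mki67, Cenpa and Mcm5), for the gene that followed the T cell gene Cd3e most closely (Mcm3), for Cdk1, which had one of the 3 smallest p in 5 comparisons, and for Cdc20, described below as the leader of its role. Each stretch holds the 160 bases before the transcription start, 5′ to 3′, from RefSeq on GRCm38.p6. Capitals mark TTTGAA (the cell cycle genes homology region, CHR), CCAAT (the CCAAT box) and TTTCCCGC, TTTCGCGC, TTTGCCGC or TTTGGCGC (E2F sites), each on either strand.
Mki67, minus strand of chr7:135716380-135716539: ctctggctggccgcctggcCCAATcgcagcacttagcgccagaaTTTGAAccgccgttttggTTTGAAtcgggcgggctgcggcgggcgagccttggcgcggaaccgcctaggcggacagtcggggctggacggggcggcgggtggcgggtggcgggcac
Cenpa, plus strand of chr5:30666726-30666885: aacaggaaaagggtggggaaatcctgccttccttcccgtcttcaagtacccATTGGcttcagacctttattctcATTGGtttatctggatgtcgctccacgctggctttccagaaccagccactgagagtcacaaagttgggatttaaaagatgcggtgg
Mcm5, plus strand of chr8:75109349-75109508: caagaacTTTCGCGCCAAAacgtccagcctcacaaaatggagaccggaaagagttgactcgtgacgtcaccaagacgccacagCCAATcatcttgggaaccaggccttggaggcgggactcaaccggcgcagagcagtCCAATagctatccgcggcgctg
Mcm3, minus strand of chr1:20820313-20820472: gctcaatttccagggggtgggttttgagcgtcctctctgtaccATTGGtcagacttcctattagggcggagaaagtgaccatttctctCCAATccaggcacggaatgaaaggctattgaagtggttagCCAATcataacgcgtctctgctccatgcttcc
Cdk1, minus strand of chr10:69352913-69353072: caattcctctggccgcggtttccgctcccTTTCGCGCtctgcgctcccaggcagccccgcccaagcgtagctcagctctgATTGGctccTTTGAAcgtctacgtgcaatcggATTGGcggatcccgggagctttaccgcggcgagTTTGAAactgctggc
Cdc20, minus strand of chr4:118437344-118437503: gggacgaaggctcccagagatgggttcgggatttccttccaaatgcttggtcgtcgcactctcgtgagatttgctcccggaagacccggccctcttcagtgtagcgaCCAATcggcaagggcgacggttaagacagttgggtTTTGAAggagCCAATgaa

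Of the 32 genes, 27 had a RefSeq promoter here, and Aurkb, Ccna2, Mcm4, Stmn1 and Tpx2 had no entry. Within 250 bases before the start, CCAAT stood in 22 of 27 promoters (81.48%), beside 34.42% of the promoters of 26998 other genes. TTTGAA stood in 8 of 27 (29.63%, beside 16.26%), and an E2F site in 4 of 27 (14.81%, beside 1.90%), those of Cdk1, Mcm5, Mcm6 and Mcm7. In the Mcm5 stretch, a pair of E2F matches on opposite strands overlap and form the long capital run. A match of letters is a description and no measurement of binding.

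Within groups, the division genes differed widely from mouse to mouse. The median over the 31 genes of the within-group standard deviation was 0.56 on the log2 scale, beside 0.23 over all 19802 tested probe sets. The 31 include the 11 dim genes that were not tested, so the sets compared are unlike. Among the tested genes alone, this standard deviation ran from 0.35 (Rrm1) to 1.13 (Rrm2). HF non pregnant mouse 5 had the highest value of 28 of 31 genes. The exceptions were Mcm2, highest in control pregnant mouse 2, Tpx2, highest in control pregnant mouse 1, and Tyms, highest in control pregnant mouse 4. The lowest value fell in HF pregnant mouse 5 for 13 genes, in control non pregnant mouse 1 for 10 and in control pregnant mouse 1 for 5. The number of the 31 genes above 100 ranged from 7 in control non pregnant mouse 1 to 27 in HF non pregnant mouse 5.

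Mki67, which encodes the Ki-67 protein that coats mitotic chromosomes, had intensities of 254, 172, 278, 254 and 46.5 in HF pregnant mice and of 457, 164, 304, 183 and 1019 in HF non pregnant mice. In control pregnant mice it read 48.8, 500.5, 102, 356 and 175, and in control non pregnant mice 58.3, 101, 163, 125 and 175.5. The 4 groups overlapped, and values under 100 occurred in 3 of them. The range over all mice was 21.9-fold, with a lowest value under the threshold of 100, where such folds are uncertain. Top2a, the topoisomerase that untangles replicated chromosomes, ranged 12.8-fold, and Cenpa, the histone of centromeres, 8.35-fold, both also down to values under 100.

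Among the cyclins, Ccna2, the cyclin of S and G2 phases, read 124, 111, 138, 151 and 63.2 in HF pregnant mice and 202, 103, 135, 97.7 and 332 in HF non pregnant mice. Control pregnant mice gave 77.0, 221, 76.8, 197 and 127, and control non pregnant mice 53.3, 90.03, 120.3, 92.6 and 119. All groups overlapped, with HF non pregnant mouse 5 alone above 300. Cdk1, the kinase that starts mitosis, read 123, 109.8, 129, 141 and 57.8 in HF pregnant mice and 206, 90.8, 153, 103 and 349 in HF non pregnant mice. Control pregnant mice had Cdk1 at 102, 204, 93.1, 175 and 119, and control non pregnant mice at 61.2, 103.5, 98.55, 67.7 and 105. No control non pregnant mouse exceeded 105, which 4 of 5 HF pregnant mice did. Ccnb2, a cyclin partner of Cdk1, lay between 27.5 and 366 and above 100 in 6 mice.

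The mitotic kinases were dim. Plk1, the Polo-like kinase, read 68.8, 74.7, 79.65, 70.85 and 57.9 in HF pregnant mice and 105, 57.4, 65.5, 53.4 and 171 in HF non pregnant mice. In control pregnant mice Plk1 stood at 67.4, 111, 62.55, 90.9 and 67.9, and in control non pregnant mice at 35.5, 61.3, 69.7, 56.2 and 66.8. The values above 100 came from HF non pregnant mice 1 and 5 and control pregnant mouse 2. Aurka, the kinase of spindle poles, exceeded 100 in 1 mouse and Aurkb, the kinase of the chromosomal passenger complex, in 0. Birc5 (survivin), a subunit of that complex, ranged 17.3-fold, between 17.4 and 301, an uncertain fold since it reaches under 100.

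Cdc20, the activator of the anaphase-promoting complex, read 168, 155, 169, 188 and 56.1 in HF pregnant mice and 269.95, 124, 182, 131 and 549 in HF non pregnant mice. Control pregnant mice gave Cdc20 values of 116, 329, 102, 279.6 and 152, and control non pregnant mice 81.6, 123, 163, 103 and 142. HF pregnant mouse 5 and HF non pregnant mouse 5 lay at the ends of the range, and the other values overlapped between groups. Ube2c, the ubiquitin-conjugating enzyme of the same complex, was above 100 in 18 mice. The checkpoint genes Bub1 and Bub1b exceeded 100 in 1 and 2 mice.

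Stmn1 (stathmin), which destabilises microtubules and is also expressed outside division, read 933, 585, 808, 843 and 402 in HF pregnant mice and 1051, 607, 969, 795 and 1674 in HF non pregnant mice. Control pregnant mice had Stmn1 at 303, 961, 476, 916 and 728, and control non pregnant mice at 715, 753, 506, 704 and 559. It exceeded 100 in all mice, with overlapping groups. Of the other spindle genes, Nusap1, a microtubule-binding protein of the spindle, exceeded 100 in 5 mice and Prc1, which bundles microtubules of the midzone, in 6. Kif11, the motor that separates spindle poles, did so in 1 mouse, and Tacc3, a spindle protein, and Tpx2, an activator of Aurora A, in 0.

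For nucleotide supply, Rrm1, the large subunit of ribonucleotide reductase, read 243, 248, 291, 285 and 205 in HF pregnant mice and 360.25, 245, 279.5, 230.5 and 537 in HF non pregnant mice. Control pregnant mice gave 233, 365, 200.5, 322 and 230.3 for Rrm1, and control non pregnant mice 189, 229, 289, 241 and 269. The groups overlapped, and the whole range was 2.84-fold. Rrm2, the small subunit, ranged 18.98-fold, between 36.8 and 698, an uncertain fold since it reaches under 100. Tk1, thymidine kinase, exceeded 100 in 4 mice, while Tyms, thymidylate synthase, read between 13.01 and 20.18 and so was not detected above the threshold in any mouse.

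Pcna, the sliding clamp, read 2349.55, 2178, 2631, 2466 and 1845 in HF pregnant mice and 3024, 1949, 2506, 2031 and 4789.8 in HF non pregnant mice. Control pregnant mice had Pcna at 1516, 3206, 1734, 2775 and 1959, and control non pregnant mice at 1436, 1692.5, 1809, 1814 and 2235. The control non pregnant mice lay toward the low end without being apart from any other group. Mcm5, a subunit of the MCM helicase, read 377, 308, 381, 439.7 and 138 in HF pregnant mice and 615, 218, 353, 250.5 and 1207 in HF non pregnant mice. Control pregnant mice read 80.04, 667, 149, 528 and 209 for Mcm5, and control non pregnant mice 98.02, 173, 267, 198 and 322. Its range was 15.1-fold, down to a value under 100, as was the 7.35-fold range of Mcm3. Those of Mcm2, Mcm4, Mcm6 and Mcm7, which stayed above 100, were 2.99, 3.86, 6.67 and 2.98-fold.

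**Figure D1:**
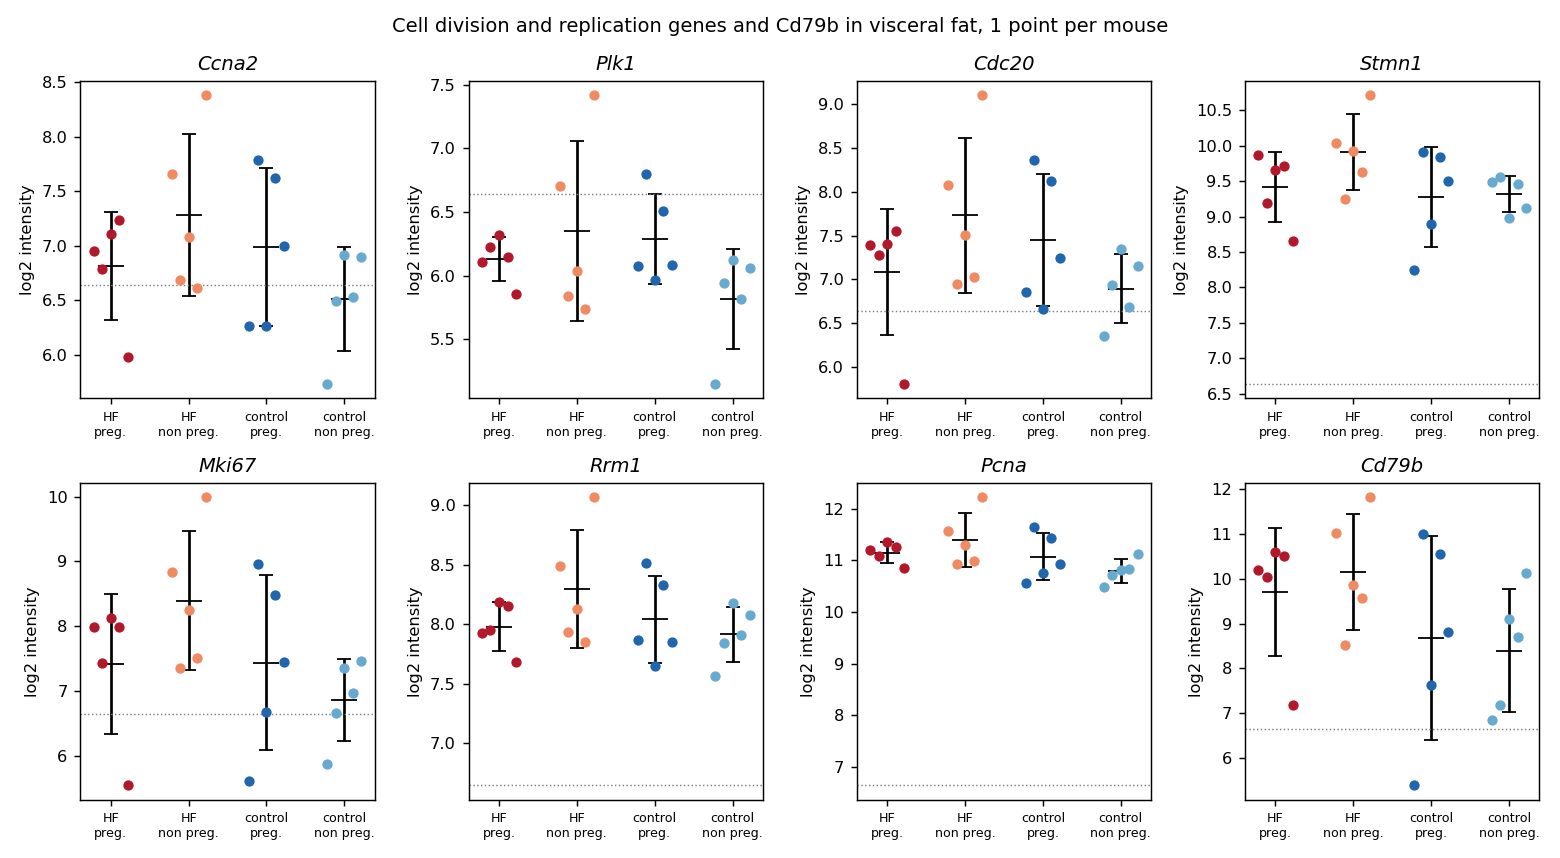
Log2 intensity of 1 gene of each role and of Cd79b (panels) in the 4 groups, with 1 point per mouse and the mean and SD of 5 mice in black; the dotted line marks an intensity of 100. HF non pregnant mouse 5 is the highest point in all panels, with Mki67 at 1019, and the groups overlap.

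In HF pregnant against HF non pregnant mice, 30 of 31 division genes were lower and 1 higher, beside 46.37% higher among all tested probe sets. The median log2 fold change was -0.41, beside -0.01 over all tested probe sets. The division genes varied together across mice, here and in the comparisons below, so such counts do not hold separate observations. None of the 20 tested genes passed the test (limma with adjustment over all tested probe sets), beside 0.0252% of all tested probe sets, and 0 had an unadjusted p under 0.05 (background 4.66%). The smallest p belonged to Ccnb2, at 6.055 ± 0.759 in HF pregnant and 6.996 ± 1.002 in HF non pregnant mice (mean log2 intensity and SD of 5 mice each). Its log2 fold change was -0.94 (SE 0.49, limma adjusted p = 0.9999). Cdk1 gave -0.57 (SE 0.34) and Stmn1 -0.49 (SE 0.31), both with limma adjusted p = 0.9999. Without HF non pregnant mouse 5 the median shrank to -0.16.

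In HF pregnant against control pregnant mice, 13 of 31 genes were higher and 18 lower, with a median log2 fold change of -0.06, beside 0.05 over all tested probe sets. In this comparison 0 of 20 genes passed the test, beside 0.192% of all tested probe sets, and 0 had an unadjusted p under 0.05 (background 12.8%). The values of Cdk1, Cdc20 and Mcm4 were -0.30 (SE 0.34), -0.37 (SE 0.42) and 0.23 (SE 0.28), and their limma adjusted p lay between 0.667 and 0.687. Within the list, 6 of 7 clamp and helicase genes were higher in HF pregnant mice (median 0.19) and 3 of 3 cyclin and Cdk1 genes lower (median -0.30). Of all tested probe sets, 59.97% were higher. The genes of each of these roles varied together across mice, so they are not separate observations. Cdk1 gave -0.08 without HF pregnant mouse 5, and Mcm4 gave 0.05 without control pregnant mouse 1. The median of all 31 turned to 0.09 without HF pregnant mouse 5, control pregnant mouse 2 or control pregnant mouse 4, and was -0.19 without control pregnant mouse 1.

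Among the comparisons of groups, the largest median shift was that of HF non pregnant against control non pregnant mice. Of 31 genes, 30 were higher and 1 (Tpx2) lower, beside 51.61% higher among all tested probe sets. The median log2 fold change was 0.77, with a range from -0.10 to 1.53, beside a median of 0.01 over all tested probe sets. No gene passed the test, beside 0% of all tested probe sets, while 11 of 20 had an unadjusted p under 0.05, all higher in HF non pregnant mice, beside 17.7% of all tested probe sets and 10.5% in that direction. Prc1 averaged 6.81 ± 0.52 in HF non pregnant and 6.17 ± 0.16 in control non pregnant mice (mean log2 intensity and SD of 5 mice each), a log2 fold change of 0.63 (SE 0.22, limma adjusted p = 0.281). Cdk1 and Ube2c each gave 0.91 (SE 0.34, limma adjusted p = 0.281), and Mki67 gave the upper end of the range. Values of no gene were apart between the groups, beside 2.19% of all tested probe sets.

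This difference depended on single mice. Without HF non pregnant mouse 5 the median was 0.49 and 1 gene had an unadjusted p under 0.05, beside 5.31% of all tested probe sets in that fit. The count was 4, 20, 7 and 18 without HF non pregnant mouse 1, 2, 3 and 4 (background 7.5%, 29%, 14.4% and 26.5%), and 3, 6 and 5 without control non pregnant mouse 1, 2 and 4 (background 14.8%, 14.1% and 11.8%), so that the background moved as well and 3 of 20 lay near it. Leaving out any other mouse gave 8 to 16 (background 11.5% to 23.8%). The number of genes that passed the adjusted test was 0 in each of these fits, but it was 19 of 20 when arrays were weighted by their residual spread, where 37.8% of all tested probe sets were called. Requiring a 1.5-fold change besides an unadjusted p under 0.05 left 10 of the 11 genes (background 3.91%).

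Pregnancy in control mice was set beside these differences. In control pregnant against control non pregnant mice, 30 of 31 genes were higher and 1 (Stmn1) lower, beside 50.41% higher among all tested probe sets. The median log2 fold change was 0.39, beside 0.00 over all tested probe sets. None of 20 passed the test, beside 0% of all tested probe sets, and 0 had an unadjusted p under 0.05 (background 2.9%). Cdk1 gave 0.64 (SE 0.34), Prc1 0.41 (SE 0.22) and Ube2c 0.55 (SE 0.34), each with limma adjusted p = 0.963. Without control pregnant mouse 2 the median was 0.19, and without that mouse and control non pregnant mouse 4 it was 0.20.

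**Figure D2:**
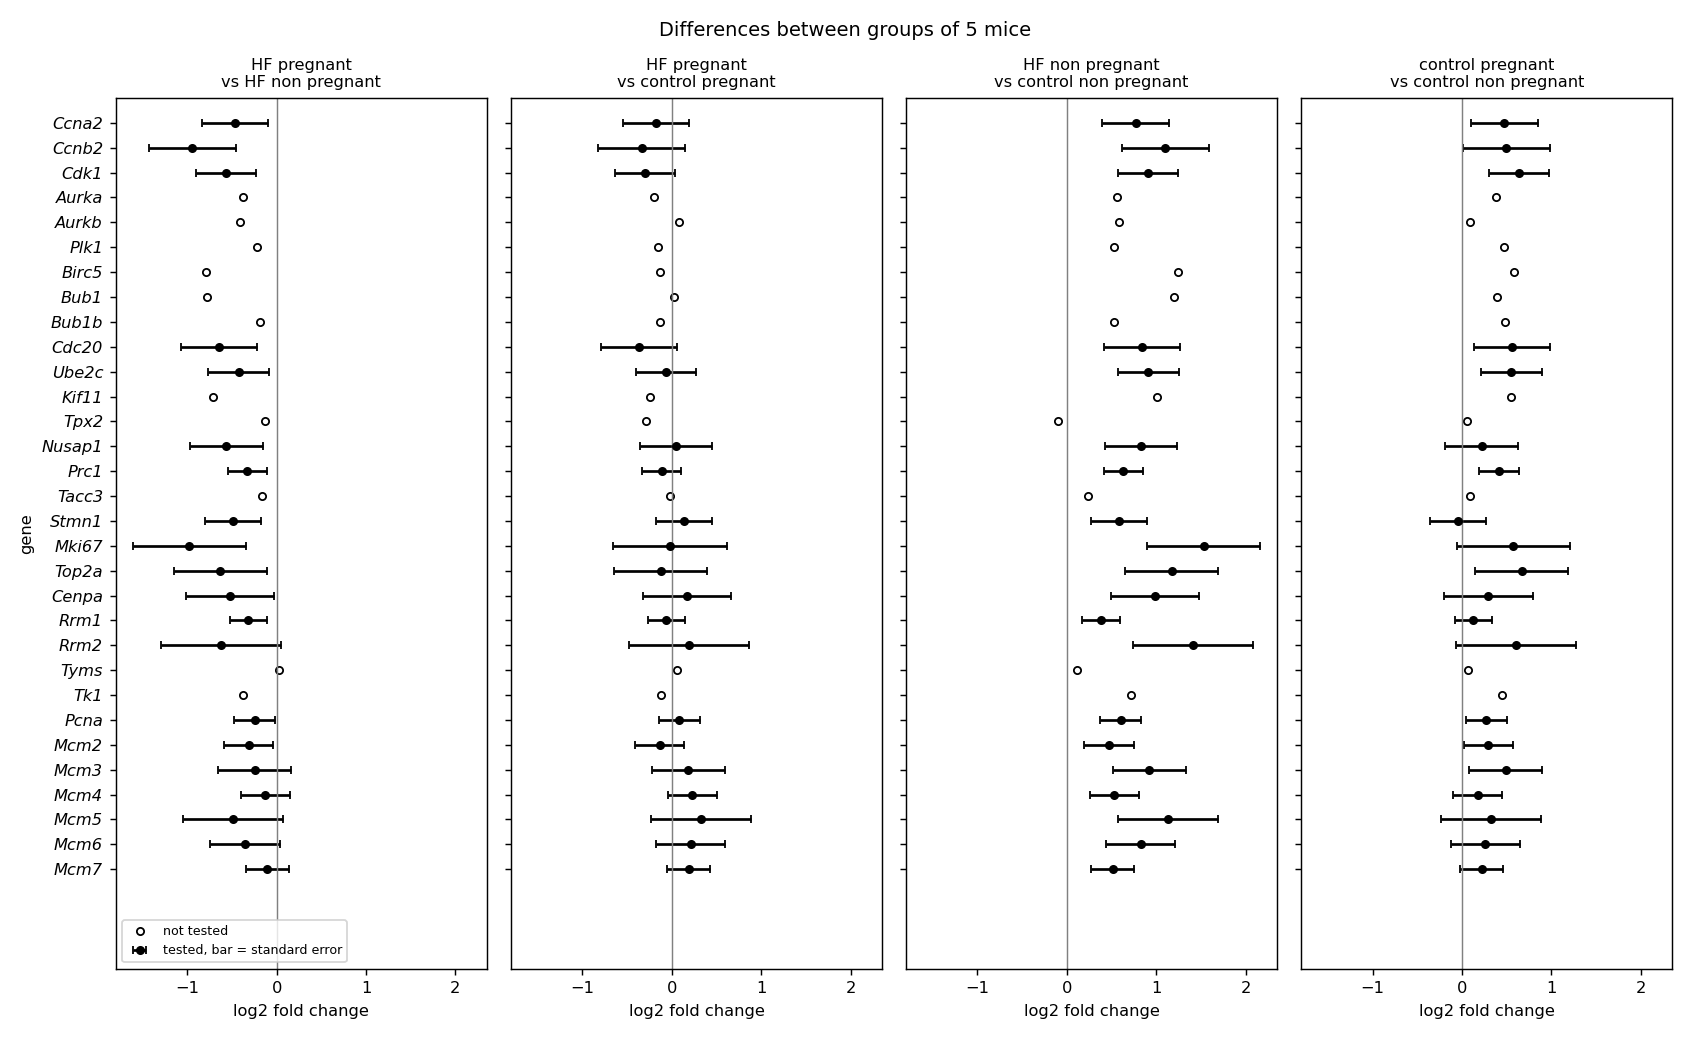
Log2 fold change (x axis) of the 31 genes (y axis) in the 4 comparisons of groups of 5 mice, with standard errors for the 20 tested genes (filled points) and none for the 11 not tested (open points). HF non pregnant against control non pregnant mice show 30 of 31 points to the right of 0, with a median of 0.77.

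The interaction of diet and pregnancy, the pregnancy difference in HF mice minus that in control mice, was then taken. All 31 genes had a negative value, beside 47.66% of all tested probe sets with a positive one. The median was -0.76, with a range from -1.55 to -0.05, beside a median of -0.01 over all tested probe sets. Since the genes vary together across mice, they are not separate observations. Of the 20 tested genes 0 passed the test, beside 0% of all tested probe sets, and 2 had an unadjusted p under 0.05 (background 3.08%, and 1.73% in this direction), both with a change over 1.5-fold (background 0.894%). These were Cdk1 at -1.21 (SE 0.48, limma adjusted p = 0.933) and Prc1 at -0.74 (SE 0.31, limma adjusted p = 0.933), followed by Ccnb2 at -1.43 (SE 0.69). The median was -0.47 without HF non pregnant mouse 5, and the count of unadjusted p under 0.05 was then 1, as it was without HF pregnant mouse 5, HF non pregnant mouse 1 or control pregnant mouse 2 or 4. It was 8 and 6 without control pregnant mouse 1 and 3 (background 4.81% and 2.87%), 5 without HF non pregnant mouse 2 or 4 (background 4.25% and 5.52%), and 4 without control non pregnant mouse 3 (background 4.56%).

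Averaged over pregnancy, 30 of 31 genes were higher in HF than in control mice (median 0.35, beside 0.04), beside 57.60% of tested probe sets. Averaged over diet, 14 of 31 were higher in pregnant than in non pregnant mice (median -0.01, beside -0.01), beside 47.65% of tested probe sets. Neither called any of the 20 tested genes, beside 1.24% of all tested probe sets for diet and 0.0101% for pregnancy. At an unadjusted p under 0.05 the count was 1 for diet, Pcna at 0.34 (SE 0.16, limma adjusted p = 0.167, background 29.6%, and 16.1% higher), and 0 for pregnancy (background 4.59%). Mcm7 and Mcm4 followed for diet with 0.35 (SE 0.17) and 0.38 (SE 0.19), and Stmn1, Ccnb2 and Rrm1 had the smallest p for pregnancy with -0.27 (SE 0.22), -0.22 (SE 0.34) and -0.09 (SE 0.15). With array weights 14 genes were called for diet, beside 46.1% of all tested probe sets. Without HF non pregnant mouse 5 the median was 0.23 for diet and turned to 0.11 for pregnancy. The count at an unadjusted p under 0.05 for diet was 12 without HF pregnant mouse 5 (background 37.6%), 8 without control pregnant mouse 2 (background 43.5%, a share that 8 of 20 did not exceed), and between 0 and 6 without any other mouse (background 20% to 36.6%). With Cd79b in the fit the direction for diet was lost, with a median of -0.07 and 9 genes higher and 22 lower in HF mice. The direction was kept with Cd3e alone, at a median of 0.19 with 30 genes higher and 1 lower. With both Cd79b and Cd3e the median was 0.01, with 17 higher and 14 lower.

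The link to lymphoid genes was read across the 20 mice, after the group means were taken out. Cd79b, a chain of the B cell receptor, read 1162, 1056, 1538, 1464 and 144.95 in HF pregnant mice and 2085, 366, 922, 757 and 3613 in HF non pregnant mice. It read 41.95, 2036, 198, 1504 and 449.95 in control pregnant mice and 115, 144, 545, 417 and 1124 in control non pregnant mice. The range was 86.1-fold, with HF non pregnant mouse 5 highest and control pregnant mouse 1 lowest. That lowest value lay under 100, so the fold is uncertain. Cd3e, a chain of the T cell receptor complex, read 227, 237, 254, 253 and 134 in HF pregnant mice, 305, 160.02, 194.1, 194.2 and 326 in HF non pregnant mice, 206, 385, 139, 246 and 211 in control pregnant mice and 113, 134, 197, 179.9 and 265 in control non pregnant mice. Its range was 3.42-fold, and its groups overlapped.

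With more Cd79b, the division genes rose together. The slope on Cd79b was positive and passed the test in 20 of 20 tested genes (limma with adjustment over all tested probe sets), beside 59.6% of all tested probe sets called and 29.9% called in this direction. The median correlation over the 31 genes was 0.86 (Pearson's r; the median of Spearman's rho was 0.90), with 28 genes above 0.7 and 10 above 0.9, beside a median of -0.13 over all tested probe sets, of which 21.98% lay above 0.7 and 6.61% above 0.9. Without control pregnant mouse 1 and control non pregnant mouse 1, the 2 mice farthest from the median of Cd79b, the median was 0.87. In all, 62 relations were computed, 31 with each lymphoid gene.

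Mki67 rose by 0.62 on the log2 scale with each doubling of Cd79b (SE 0.04, limma adjusted p = 2.292e-09; r = 0.96, rho = 0.96, r = 0.94 without the 2 mice). Mcm5 rose by 0.55 (SE 0.04, limma adjusted p = 3.803e-09; r = 0.96, rho = 0.96, r = 0.94 without the 2 mice) and Cenpa by 0.48 (SE 0.04, limma adjusted p = 1.37e-08; r = 0.95, rho = 0.97, r = 0.96 without the 2 mice). Each of these correlations had a permutation p of 1e-05, the smallest that 100000 permutations within groups can give. For comparison with these 3, Pcna rose by 0.20 (SE 0.03) and Rrm1 by 0.16 (SE 0.03), both called.

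The lowest correlations with Cd79b belonged to Tpx2, Ube2c and Tyms. Ube2c still rose with Cd79b (0.22 per doubling, SE 0.06, limma adjusted p = 0.0074; r = 0.63, permutation p = 0.0026; rho = 0.75, permutation p = 0.0011; r = 0.62 without the 2 mice). Tyms gave r = 0.64 (permutation p = 0.0118) and rho = 0.67 (permutation p = 0.0066) at intensities near 16. Tpx2 gave r = -0.75 (permutation p = 9.8e-04) and rho = -0.67 (permutation p = 0.0026). Its 4 probe sets disagreed, since those not used here gave r of 0.76, 0.60 and -0.45 with Cd79b, and none passed the filter on low values, so the direction of Tpx2 is uncertain.

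**Figure D3:**
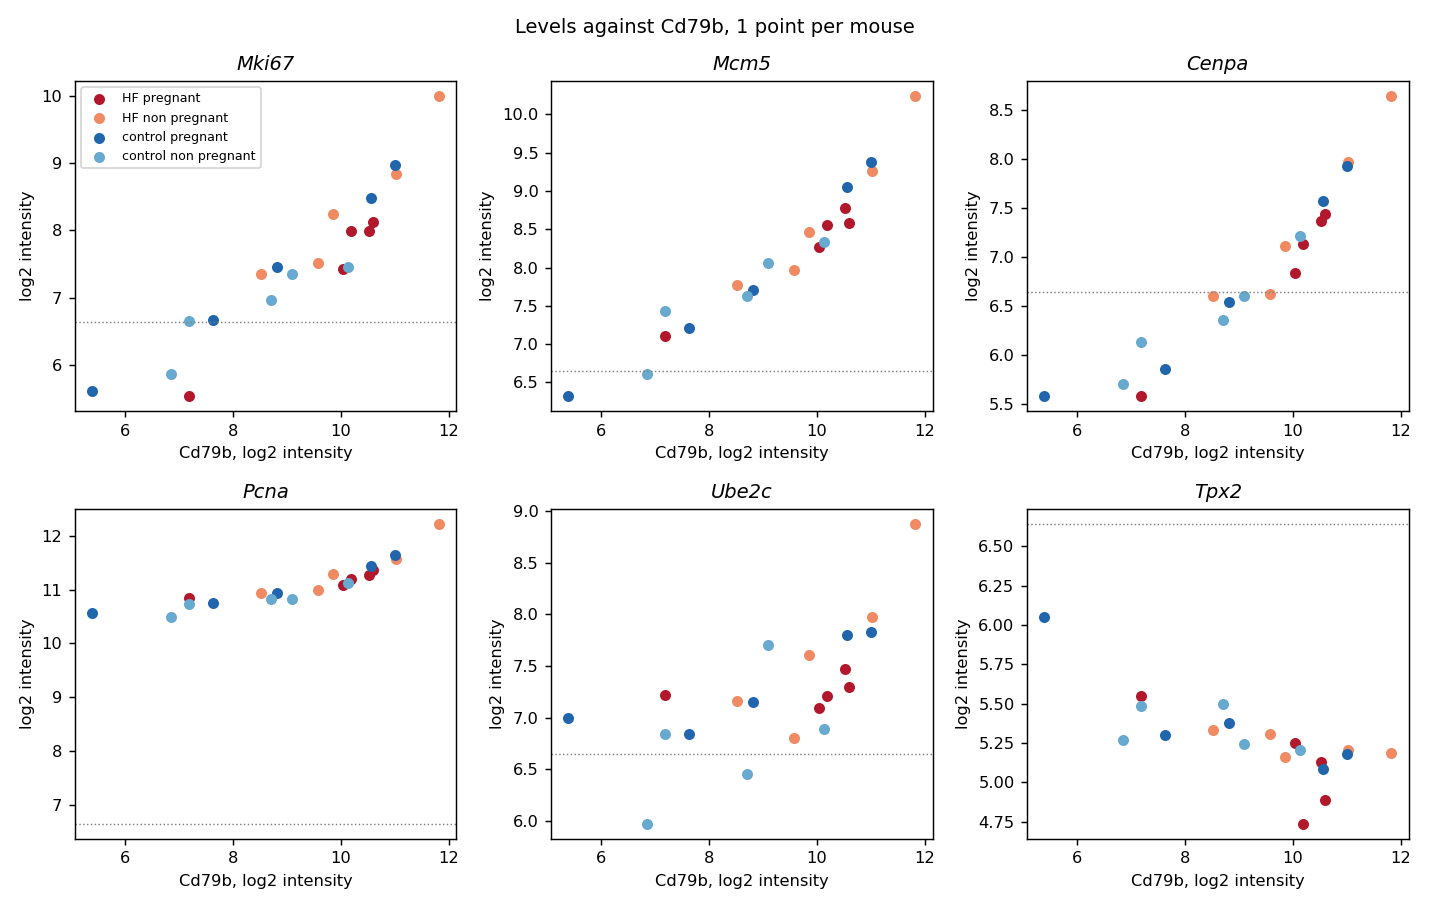
Log2 intensity of 6 genes (y axes) against that of Cd79b (x axes), with 1 point per mouse coloured by group and a dotted line at an intensity of 100. Mki67, Mcm5 and Cenpa climb with Cd79b in all groups, Pcna and Ube2c less steeply, and Tpx2 stays under 100 in every mouse.

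Cd3e gave the same direction. The slope on Cd3e was positive and passed the test in 20 of 20 tested genes, beside 54.1% of all tested probe sets called and 26.3% called in this direction. The median r was 0.83 and the median rho 0.85, with a median r of 0.78 without control non pregnant mouse 1 and control pregnant mouse 2, the 2 mice farthest from the median of Cd3e. Mcm3 (r = 0.91, rho = 0.89), Cenpa (r = 0.90, rho = 0.90) and Mcm2 (r = 0.895, rho = 0.89) stood highest, each with a permutation p of 1e-05, and their r without the 2 mice were 0.87, 0.87 and 0.895. Stmn1 was the lowest of the tested genes, with 0.60 per doubling of Cd3e (SE 0.23, limma adjusted p = 0.0338; r = 0.54, permutation p = 0.0291; rho = 0.53, permutation p = 0.0271; r = 0.54 without the 2 mice). Of the genes not tested, Tyms gave r = 0.50 (permutation p = 0.0545; rho = 0.53, permutation p = 0.0319) and Tpx2 r = -0.40 (permutation p = 0.13; rho = -0.38, permutation p = 0.119).

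**Figure D4:**
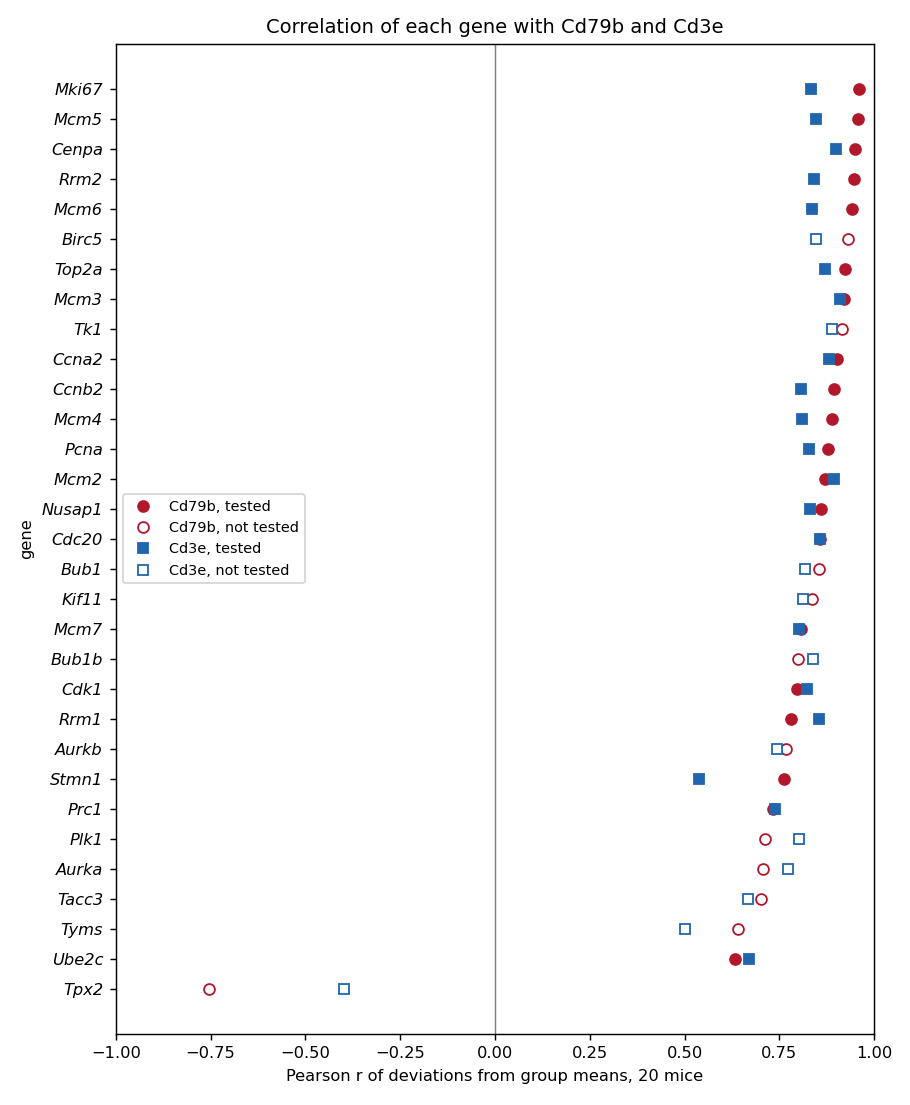
Pearson's r over 20 mice, as deviations from group means (x axis), of each of 31 genes (y axis) with Cd79b (circles) and Cd3e (squares), filled for tested genes. All genes but Tpx2 lie to the right of 0, with a median of 0.86 for Cd79b and 0.83 for Cd3e.

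Cd79b and Cd3e themselves followed each other (r = 0.84 over the 20 mice). With Cd3e in the fit, the slope on Cd79b was called in 12 of 20 genes (beside 23.1% of all tested probe sets) and the median r was 0.53, while with Cd79b in the fit the slope on Cd3e was called in 1 of 20 (beside 7.98%) and the median r was 0.37. The slope counts changed little without control pregnant mouse 2 and control non pregnant mouse 4, at 20 for Cd79b and 19 for Cd3e. With all mice and 1 lymphoid gene in the fit, 59.6% of all tested probe sets were called for Cd79b and 54.1% for Cd3e. Among the division genes themselves, the 465 pairs had a median r of 0.90, from -0.73 for Tpx2 with Mki67 to 0.99 for Birc5 with Top2a. Within roles, the median r was 0.98 for the 3 chromosome genes, 0.96 for the cyclins and Cdk1, 0.94 for the clamp and helicase, and 0.69 for the spindle genes.

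**Figure D5:**
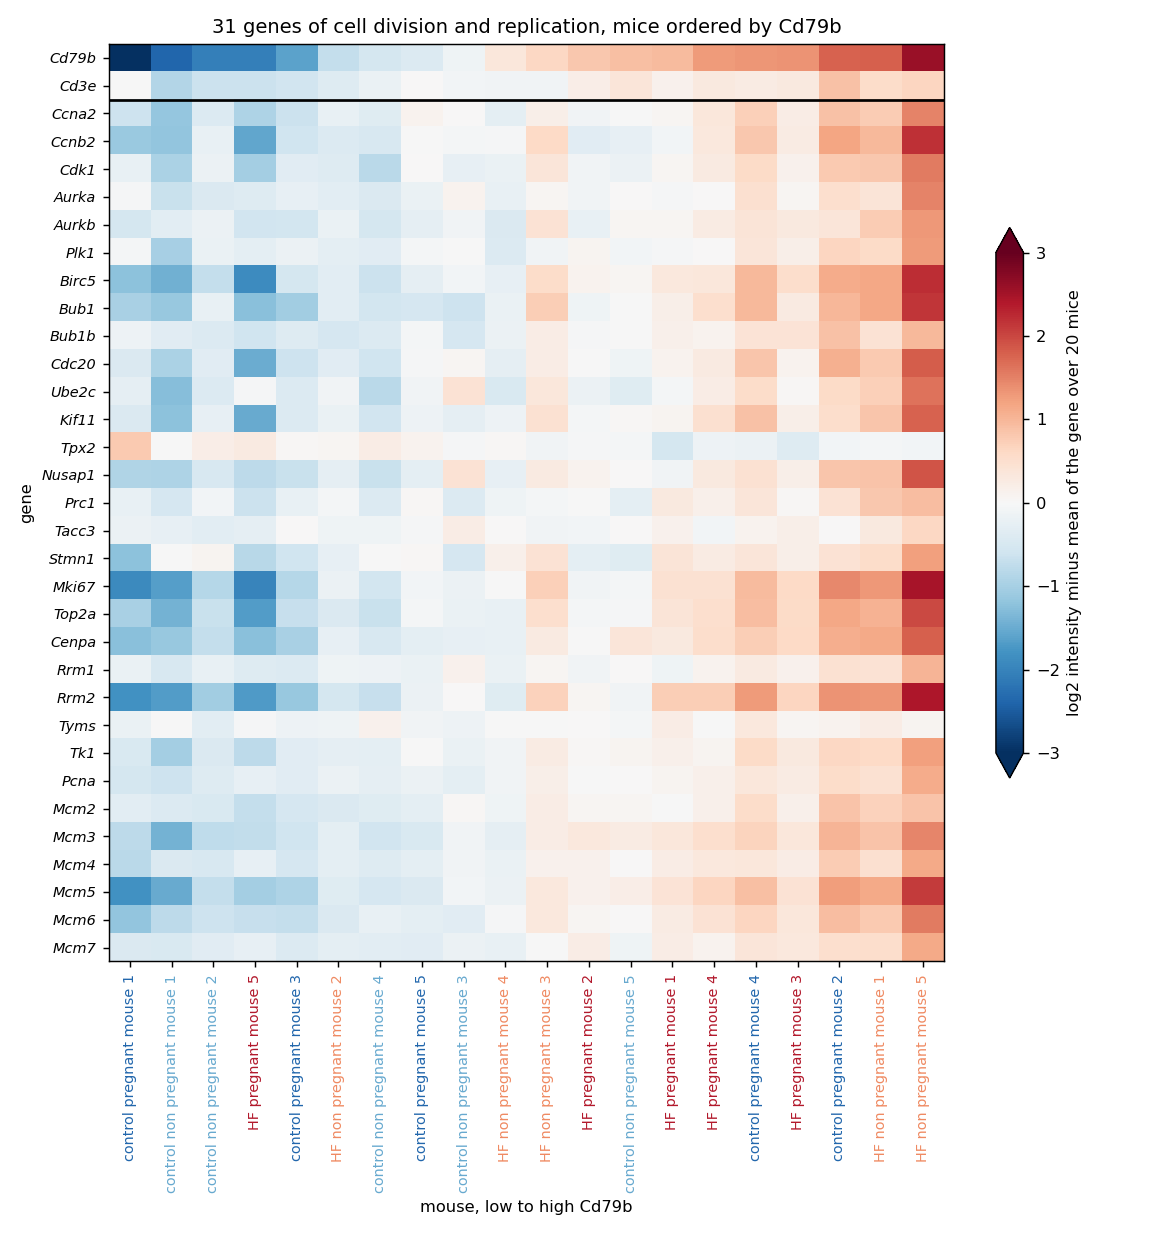
Log2 intensity minus the mean over 20 mice (colour, red high and blue low, values beyond 3 drawn at 3) of Cd79b, Cd3e and the 31 genes (rows) in each mouse (columns, ordered from low to high Cd79b, label colour by group). The rows turn red toward the right, where HF non pregnant mouse 5 holds the highest value of 28 of 31 genes, and the groups are mixed along the order.

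The group comparisons were repeated with Cd79b in the fit, which compares the groups at an equal level of that gene. The median log2 fold change of HF non pregnant against control non pregnant mice was then 0.19, where the fit without Cd79b gave 0.77, and that of HF pregnant against control pregnant mice was -0.32, with all 31 genes lower in HF pregnant mice. It was -0.29 within the HF mice, pregnant against non pregnant, 0.32 for control pregnant against control non pregnant mice and -0.52 for the interaction. The adjusted test called 0 of 20 genes in each of these 5 comparisons, beside 0.0808% of all tested probe sets for pregnant against non pregnant HF mice, 0.641% for HF pregnant against control pregnant mice and 0% for the others. At an unadjusted p under 0.05, the count was 11 of 20 for the interaction (background 5.18%) and 7 for HF pregnant against control pregnant mice (background 17.7%). It was 4 for pregnant against non pregnant HF mice (background 8.54%), 6 for control pregnant against control non pregnant mice (background 7.3%) and 1 for HF non pregnant against control non pregnant mice (background 4.76%).

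At equal Cd79b, Mki67 gave an interaction of -1.09 (SE 0.27, limma adjusted p = 0.836) and a log2 fold change of -0.69 in the HF groups, pregnant against non pregnant (SE 0.19, limma adjusted p = 0.189). With Cd3e in place of Cd79b the median was -0.29 for the interaction, with 1 gene at an unadjusted p under 0.05 (background 2.39%), and with both it was -0.35, with 7 such genes (background 3.22%). For HF pregnant against control pregnant mice, the fit with Cd3e gave a median of -0.02, with 15 genes higher and 16 lower. The single direction seen at equal Cd79b therefore did not hold at equal Cd3e, and 0 genes had an unadjusted p under 0.05 (background 23.4%). With both genes in the fit this comparison had a median of -0.18, with 28 genes lower and 3 higher. Of the tested genes, 4 then had an unadjusted p under 0.05 (background 9.17%). For control pregnant against control non pregnant mice the fit with Cd3e gave a median of -0.05, with 13 higher and 18 lower. The fit with Cd79b had given 0.32, and that with both genes gave 0.13, with 26 higher and 5 lower. With Cd3e and with both genes, 0 genes had an unadjusted p under 0.05 (background 2.68% and 3.32%). HF non pregnant against control non pregnant mice kept a positive median of 0.32 with Cd3e. In this comparison 30 of 31 genes were higher with Cd3e, with Cd79b and with both. The count at an unadjusted p under 0.05 was 3 with Cd3e (background 6.93%) and 1 with both (background 5.39%). Pregnant against non pregnant HF mice gave a median of -0.35 with Cd3e and -0.31 with both genes, each with 30 of 31 genes lower. At an unadjusted p under 0.05 the counts were 5 with Cd3e (background 7.41%) and 8 with both (background 9.81%). The part of lymphoid tissue in the differences between groups was not tested beyond these fits.

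Other genes of the cell cycle were set beside the 31. Of 52 measured genes of mitosis, 22 were tested, and with Cd79b 18 rose and 2 fell. Of 48 genes of replication, 38 were tested, and 25 rose and 1 fell, while of 26 genes of G1 entry and its inhibitors, 19 were tested, and 11 rose and 5 fell. Over all tested probe sets 29.9% rose and 29.6% fell with Cd79b, so the share of G1 genes that fell lay near the background. The smallest p belonged to Cdt1, which loads the MCM helicase (0.45 per doubling of Cd79b, SE 0.03), Smc4, a condensin subunit (0.38, SE 0.03), Dbf4, the activator of a replication kinase (0.45, SE 0.04), and Incenp, of the chromosomal passenger complex (0.31, SE 0.03), with limma adjusted p between 1.005e-09 and 2.776e-08. The genes that fell, named after their values were seen, were Pttg1 (securin) and Anln (anillin) for mitosis and Orc6, an origin recognition subunit, for replication. In the third list they were the D cyclins Ccnd2 and Ccnd3, Rb1, the retinoblastoma protein that restrains E2F, and the inhibitors Cdkn1c and Cdkn2c, with Cdkn1c at -0.30 per doubling (SE 0.07, limma adjusted p = 0.0024). For Cd3e the smallest p belonged to Dbf4, Rfc2, a subunit of the clamp loader, Btg2, an antiproliferative gene, and Incenp, all of which rose.

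No gene of these 3 lists was called between groups. Those nearest to it were Ccnd2 (-0.32, SE 0.08, limma adjusted p = 0.0528) and Cdkn1c (-1.15, SE 0.29, limma adjusted p = 0.0565), both lower in HF than in control mice averaged over pregnancy. For HF pregnant against control pregnant mice, Cdkn1c gave the smallest p (-1.36, SE 0.42, limma adjusted p = 0.198), followed there by Gins4 of the replicative helicase (-0.28). In HF non pregnant against control non pregnant mice Ccnd2 gave -0.35 and Ckap2l, a spindle protein, 0.51 (limma adjusted p = 0.281 for both). Rfc3 (clamp loader) gave -0.59 and Prim2 (primase) -0.27 in HF pregnant against HF non pregnant mice, and Spc25 (kinetochore) gave 0.68 and Cdk6 (a G1 kinase) 0.32 in control pregnant against control non pregnant mice. For the interaction, Spc25 gave -0.91 and Cdca3, a trigger of mitotic entry, -1.07, and for pregnancy averaged over diet Rfc3 gave -0.29 and Cdc25b, a phosphatase that activates Cdk1, -0.32, each with a limma adjusted p of 0.783 or more.

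Across mice, markers of B and T cells also rose with Cd79b. Of 9 tested B cell genes besides Cd79b, 9 rose with it, led by Ms4a1 (CD20) and Bank1, and of 10 tested T cell genes 10 rose, led by Cd2 and Cd28. The summed intensity of the 11 measured B cell genes ran from 1320.2 to 10431 in HF pregnant mice, from 2925 to 22716 in HF non pregnant mice, from 700.1 to 13835 in control pregnant mice and from 1149 to 7199.7 in control non pregnant mice. That of the 10 T cell genes ran from 587 to 4254 in HF pregnant, from 1365 to 8174 in HF non pregnant, from 682 to 7121 in control pregnant and from 631 to 3551 in control non pregnant mice. No B or T cell gene stayed at or under 100 in every mouse. The median log2 fold change of HF non pregnant against control non pregnant mice was 1.46 for the B cell list and 1.28 for the T cell list, beside 0.77 for the division genes, and 0 genes of either list were called in this or the next comparison. For HF pregnant against control pregnant mice the median was 0.73 for the B cell list (11 of 11 higher). It was 0.37 for the T cell list (8 of 10 higher), beside -0.06 for the division genes (18 of 31 lower). The B and T cell medians were smaller than the spread between mice. The mean log2 level of the B cell list had an SD of 1.18 in HF pregnant and 1.66 in control pregnant mice. For the T cell list these were 1.22 and 1.47. Control pregnant mouse 1 and HF pregnant mouse 5 were lowest in their groups for both lists. Whether the lists part without single mice was not tested. The methods of the study state that visible lymph nodes were removed from the fat.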

How the data were processed

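Total RNA of the visceral fat of 20 mice was hybridised to 1 Affymetrix array each. The authors normalized the scans by the robust multi-array average in affy under R 2.8.0, and the deposited values are intensities on the linear scale. Robust multi-array averaging fits all arrays together and shrinks the differences of dim probe sets. The log2 of each intensity was analysed with limma 3.58.1 (R 4.3.3), with a mean for each of 4 groups and moderated variances. Probe sets above 100 in at least 5 arrays were tested (19802 of 45101), and p-values were adjusted by Benjamini-Hochberg over all of them at a threshold of 0.05. The slope on Cd79b or Cd3e was fitted in the same model, and correlations are those of deviations from group means, with 100000 permutations within groups (scipy 1.17.1). The labels number the mice of a group as replicates, and p-values measure the spread between these mice.

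Platform annotation gave 1 symbol to 34958 probe sets, several to 932 and none to 9211. Of the 31 genes, 23 had several probe sets, and 10 were read from sets of the _x_at or _s_at kind (5 each), which can share sequence with other transcripts. The genes and all lists were chosen with earlier results of these data known. Named were, for each comparison, the 3 tested genes with the smallest p, the leader of each of 7 roles by mean level, the 3 genes most and the 3 least correlated with Cd79b and Cd3e, and those with the smallest p of the other lists. Any other gene given with a value of its own was chosen after its values were seen. The fit was also run on simulated data, with an outcome that is not given here. The labels do not say whether equal replicate numbers pair mice across groups. Over 30 pairs of groups and numbers the median correlation of deviations was -0.16, with values from -0.75 to 0.67. Such values show no common pairing but cannot exclude one. Other settings were array weights, centring, repeated quantile normalization, other filters and floors, the mean over probe sets, lymphoid covariates, a block of the replicate number and leaving out each mouse. The rank product test named in the methods was not run here.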

Additional observations from a re-analysis of the deposited data

Results flagged for a closer look

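In HF pregnant mice, mouse 5 lay below the other 4 by more than Dixon's critical ratio of 0.71 (the gap to the nearest mouse over the range of the group) for 10 division genes and both lymphoid genes. Among the division genes, the ratio was 0.854 for Mcm3 (112 in mouse 5 against 234.6 in the nearest mouse), 0.841 for Cdc20 (56.1 against 155) and 0.824 for Birc5 (17.4 against 69.7). It was 0.803 for Mcm2, 0.762 for Tk1, 0.732 for Mki67, 0.725 for Kif11, 0.723 for Top2a, 0.722 for Rrm2 and 0.717 for Cdk1. Cd79b gave 0.841 (144.95 against 1056) and Cd3e 0.825 (134 against 227) in the same mouse. These are 12 of 132 gene and group pairs, where chance flags about 1 in 20, and the genes are not independent, since they vary together across mice.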

How the results depend on the processing

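Of 1292 values under other settings, 691 of named genes kept their direction and side of the threshold. A further 583 summary values stayed within a limit. For counts the limit was 1.5 times, and for correlations it was the SD of r over the genes. For medians it was the spread between mice of a group in the mean over the genes. In single groups this SD ran from 0.32 to 0.71, so that small medians could turn without leaving it. Within that limit medians still turned: HF against control to -0.07 with Cd79b, control pregnant against control non pregnant to -0.05 with Cd3e, and, near 0 to begin with, HF pregnant against control pregnant to 0.07 and pregnancy to 0.11 with array weights, both also without single mice. With array weights, which ran from 0.23 to 11.3, 19 genes were called for HF non pregnant against control non pregnant mice and 14 for HF against control mice, and the 6 named genes Prc1, Cdk1, Ube2c, Pcna, Mcm7 and Mcm4 passed there. Requiring a 1.5-fold change besides an unadjusted p under 0.05 counted 10 for HF non pregnant against control non pregnant mice and 2 for the interaction. The median of HF non pregnant against control non pregnant mice was 0.19 with Cd79b as a covariate and 0.19 with both lymphoid genes. With the other lymphoid gene in the fit, the Cd79b slope was called in 12 genes (median r 0.53) and the Cd3e slope in 1 (median r 0.37). Cd3e had the narrower range, 3.42-fold against 86.1-fold. Mcm4 in HF pregnant against control pregnant mice turned to -0.026 with Cd79b, and Rrm1 for pregnancy, -0.153 to 0.0028 with each mouse left out, turned at HF non pregnant mouse 5. The cause of these changes was not tested. Leaving out each mouse gave 0 calls in every group comparison, 20 calls for the Cd79b slope and 19 to 20 for the Cd3e slope. A block of the replicate number, which the labels do not describe as a pairing, gave 0 calls in all group comparisons, 20 for Cd79b and 19 for Cd3e. In the main fit with all mice, 59.6% of all tested probe sets were called for the Cd79b slope and 54.1% for the Cd3e slope. Without control pregnant mouse 2 and control non pregnant mouse 4, chosen after seeing the data, the group comparisons again called 0. The 11 dim genes are limited by signal near background.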

Other observations

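Beside the division genes, genes of other cell types followed Cd79b, as deviations from group means and with adjustment over all tested probe sets in limma, where 29.9% of all tested probe sets rose and 29.6% fell. All 7 adipocyte genes tested fell with each doubling of Cd79b, among them Cidec (-0.28, SE 0.04), a lipid droplet protein, Retn (-0.15, SE 0.03), the hormone resistin, and Adipoq (-0.09, SE 0.02). Of 6 mesothelial genes 5 fell, led by Wt1 (-0.22, SE 0.06), and of 7 endothelial genes 4 fell, led by Emcn (-0.20, SE 0.03). Of 5 plasma cell genes 4 rose, among them Mzb1 (0.73, SE 0.04) and Jchain (0.81, SE 0.08), the joining chain of antibodies. Of 9 macrophage genes 4 rose, led by Itgax (0.37, SE 0.04), and 2 fell, Cd163 and Cd14. Counted in either direction, 59.6% of all tested probe sets were called, and the shares of macrophage and endothelial genes called were not far from that. In the direction of most of their calls, both lay above the share of all tested probe sets, with few genes in each list. Of 4 tested genes of germinal centre B cells, where B cells divide, 2 rose, Lmo2 (0.25, SE 0.03) and Bcl6 (0.16, SE 0.05), and 2 of the 7 measured genes stayed at or under 100 in every mouse.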
